A study of Mus musculus with 15 samples.

Results

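The comparison described here was between irradiated mouse submandibular glands that had received a GFP gene (IR+GFP) and untreated glands (NT), across all measured genes, and its members were the 6 libraries that the labels put in these groups, of 15 in the series. Messenger RNA levels were measured by RNA sequencing of whole glands from adult male C57BL/6 mice, all wild type per the labels. IR+GFP glands were taken 7 days after local irradiation and had been given the GFP gene inside the gland. NT glands had neither irradiation nor gene transfer, so an effect of one cannot be told apart from an effect of the other in this comparison. A second irradiated group without gene transfer (IR), which is set against the same NT glands, is given beside it where it helps. The other groups of the series received irradiation with Gli1 or Shh, genes of the Hedgehog pathway. The radiation dose, the vector, the time of transfer, the time of day of collection and the animals behind each library are not given in the sources used here, so a p-value here covers the spread among these samples, which may be technical, and not a spread among animals. The green fluorescent protein of GFP itself was not measured, since the count tables list mouse genes.

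Ionizing radiation breaks DNA, and the damage signal stabilizes p53, a transcription factor. p53 then switches on genes that stop the cell cycle, repair DNA, adjust metabolism or start cell death. The submandibular gland, which makes saliva in acini and, in male mice, growth factors and kallikreins in granular ducts, is damaged by irradiation of the head and neck even though few of its cells divide.

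Each library held between 18366306 and 37371064 reads assigned to genes. Libraries 1 and 2 of IR+GFP, and likewise libraries 2 and 3 of NT, differed by less than sampling noise. Their chi-square per gene was 0.261 to 0.288, against 41.6 to 223 for the other pairs within these groups. Each such pair was counted as 1 sample, which left 4 samples here and 10 in the series, so that n = 2 in each group. Values are given first for the 2 IR+GFP samples, libraries 1 and 2 combined and then library 3, and after that for the 2 NT samples, library 1 and then libraries 2 and 3 combined. Levels are CPM, the counts of a gene per 1e6 gene reads, after TMM scaling, and fold changes are IR+GFP over NT.

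A pair of samples stood apart from their group. The summed level of 5 sublingual gland genes (Dcpp1, Dcpp2, Dcpp3, Muc19 and Smgc), which mark the neighbouring salivary gland, was 185 and 0.862 CPM in IR+GFP glands, against 1.61 and 34557 CPM in NT glands. The high NT sample was thus the combined one, and the IR+GFP samples also differed from each other. In IR+GFP library 3, 9 genes with at least 10 CPM had no read in any of the other 5 samples of IR+GFP, IR and NT, and 12 genes with at least 5 CPM in each of those 5 had under 0.5 CPM. Gm42418 was at 0 and 3019 CPM in IR+GFP glands and at 0 in both NT samples, and Ubb, a ubiquitin gene, was at 25.7 and 401 CPM in IR+GFP glands, against 26.6 and 32.6 CPM in NT glands. The pseudogene Gm12328 ran the other way, at 31.0 and 0 CPM in IR+GFP glands and 36.1 and 38.4 CPM in NT glands. These genes were chosen after their values were seen. IR+Gli1 library 3 stood apart in the same way, with 7 genes read there and not in the 5 samples and 9 genes low there, and with Gm42418 at 1969 CPM, Ubb at 375 CPM and Gm12328 at 0. Reads with several alignments made up 8.22% of all reads in IR+GFP library 3 and 7.53% in IR+Gli1 library 3, against 2.89% to 4.79% in the other libraries. Whether the authors processed these libraries like the others is not given in the sources used here, and its part in these levels was not tested. None of the genes named in this paragraph passed the test below, and the part of these samples in other results is given by leaving each out in turn.

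Genes were called at an adjusted p below 0.05 by edgeR's quasi-likelihood test with Benjamini-Hochberg adjustment over 14304 genes. In IR+GFP glands 89 genes rose and 17 fell relative to NT glands. These 106 genes were 0.741% of those tested, 0.622% higher and 0.119% lower, and 100 of them were protein coding. The samples of the groups did not overlap for any of the 106, but the same held for 47.1% of all genes tested. Among the 106, the IR+GFP samples lay within 1.5 times of each other for 100 genes and the NT samples for 94. The test favours genes with a small spread within groups, so these counts are not separate evidence. An unadjusted p below 0.05 was reached by 2448 genes (17.1%). The median log2 fold change of all genes tested was -0.02. The number of calls depended on single samples, at 560 without NT library 1, 23 without NT libraries 2 and 3, 23 without IR+GFP libraries 1 and 2, and 25 without IR+GFP library 3. Of the 39 genes named by rule that passed, 9 also passed without each of the 4 samples in turn, namely Ephx1, Ccng1, Eda2r, Phlda3, Trp53inp1, Zmat3, Tmem44, Dyrk3 and Sesn2, and each of the others missed the threshold without at least 1 of them.

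**Figure D1:**
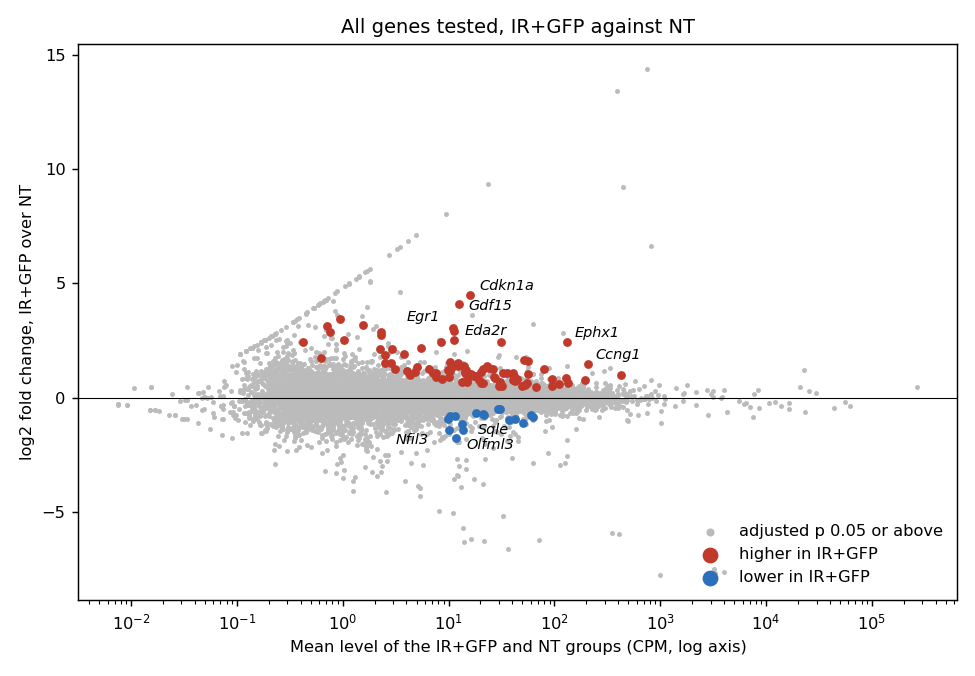
Log2 fold change of IR+GFP over NT (vertical axis) against the mean level of the groups in CPM (log horizontal axis) for the 14304 genes tested, 1 point per gene. The 89 genes that rose (red) reached log2 4.49 at Cdkn1a, the 17 that fell (blue) reached -1.75 at Olfml3, and the grey points with larger changes did not pass.

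The genes that mark an irradiation response were clearly separated between the groups. Cdkn1a, the gene of the cyclin-dependent kinase inhibitor p21 (chr17:29090976-29100727, GRCm38), was at 24.0 and 37.3 CPM in IR+GFP glands, against 1.40 and 1.17 CPM in NT glands. Both IR+GFP samples lay far above both NT samples, with means of 30.6 ± 9.42 and 1.28 ± 0.158 CPM (SD, n = 2 each). The difference was 22.4-fold (log2 4.49 ± 0.39 SE, adjusted p = 0.00577, edgeR). Without NT libraries 2 and 3 the adjusted p was 0.0830.

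Ephx1, a microsomal epoxide hydrolase that detoxifies reactive epoxides (chr1:180976210-181020904), was at 225 and 223 CPM in IR+GFP glands, against 40.7 and 42.6 CPM in NT glands. The samples within each group were nearly equal and the groups did not overlap, at 224 ± 1.26 and 41.7 ± 1.35 CPM (SD, n = 2 each). Its 5.38-fold rise (log2 2.43 ± 0.13 SE) had the smallest adjusted p of the comparison, 0.000102 by edgeR. Ccng1, which encodes cyclin G1, a p53 target that acts back on the p53 regulator Mdm2 (chr11:40748552-40755311), was at 302 and 306 CPM in IR+GFP glands, against 115 and 104 CPM in NT glands. The groups were again apart, at 304 ± 2.91 and 109 ± 8.33 CPM (SD, n = 2 each), a 2.78-fold rise (log2 1.48 ± 0.12 SE, adjusted p = 0.00123, edgeR).

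Of a list of 36 p53 target genes, all tested, 16 rose in IR+GFP glands, none fell and 20 did not pass, while 0.622% of all genes rose. The median log2 fold change of the list was 0.67, against -0.02 for all genes, 34 members were above 0, and for 27 the groups did not overlap, as for 47.1% of all genes. Its summed level was 1546 and 1622 CPM in IR+GFP glands, against 834 and 864 CPM in NT glands. Of the list, 9 members passed without NT libraries 2 and 3, 9 without IR+GFP libraries 1 and 2, and 8 without IR+GFP library 3. In whole tissue, fewer cells of a type and less RNA per cell cannot be told apart.

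Among members that act on the cell cycle, Psrc1, which encodes a microtubule-associated protein of the mitotic spindle, was at 1.70 and 1.85 CPM in IR+GFP glands, against 0.121 and 0.0733 CPM in NT glands, and passed (adjusted p = 0.0136, edgeR). Its NT levels rest on 4 and 2 reads. Zmat3, which encodes a p53-induced zinc finger protein that binds RNA, was at 27.6 and 28.5 CPM in IR+GFP glands, against 13.2 and 12.6 CPM in NT glands. It rose 2.17-fold with little spread within either group (log2 1.12 ± 0.10 SE, adjusted p = 0.00158, edgeR). Gtse1, which encodes a protein of the G2 and S phases that restrains p53, did not pass (log2 1.64 ± 0.44 SE, adjusted p = 0.135, edgeR).

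Several members tied to cell death rose as well. Eda2r, the receptor for ectodysplasin A2, was at 20.3 and 19.5 CPM in IR+GFP glands, against 2.76 and 2.42 CPM in NT glands, a 7.48-fold rise (log2 2.90 ± 0.18 SE, adjusted p = 0.000215, edgeR). Phlda3, an inhibitor of the survival kinase Akt, was at 43.8 and 62.3 CPM in IR+GFP glands, against 9.47 and 9.75 CPM in NT glands, a 5.48-fold rise (log2 2.45 ± 0.17 SE, adjusted p = 0.000446, edgeR). Trp53inp1, a stress protein that promotes p53 activity and autophagy, was at 78.5 and 76.8 CPM in IR+GFP glands, against 24.2 and 25.2 CPM in NT glands, a 3.14-fold rise (log2 1.65 ± 0.14 SE, adjusted p = 0.00158, edgeR). For each of these 3 genes every IR+GFP sample was at least 3 times every NT sample.

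The smaller rises included Tnfrsf10b, the TRAIL death receptor, at 3.49 and 4.56 CPM in IR+GFP glands, against 0.911 and 1.17 CPM in NT glands (3.68-fold, adjusted p = 0.00895, edgeR). Bax, which permeabilizes the mitochondrial outer membrane, was at 30.1 and 30.2 CPM in IR+GFP glands, against 11.7 and 13.1 CPM in NT glands (2.42-fold, adjusted p = 0.0157, edgeR). Aen, an apoptosis-enhancing nuclease, rose 1.85-fold (adjusted p = 0.0373, edgeR). Other death genes of the list did not pass. Bbc3, which encodes the BH3-only protein PUMA, had log2 1.33 ± 0.30 SE (adjusted p = 0.0880, edgeR), and Fas, another death receptor, had 0.52 ± 0.26 SE (adjusted p = 0.340, edgeR). Pmaip1, which encodes the BH3-only protein NOXA, had log2 0.05 ± 0.64 SE. With so wide an error, the value near 0 does not show that its level was unchanged.

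Stress and repair members were mixed. Sesn2, a stress-induced restrainer of mTORC1 signalling, was at 18.1 and 22.5 CPM in IR+GFP glands, against 7.59 and 7.77 CPM in NT glands (log2 1.39 ± 0.15 SE, adjusted p = 0.00726, edgeR). Polk, a polymerase that copies damaged DNA, was at 14.0 and 14.6 CPM in IR+GFP glands, against 6.65 and 5.86 CPM in NT glands (2.27-fold, adjusted p = 0.0104, edgeR). Xpc, a damage sensor of nucleotide excision repair, rose 1.57-fold (adjusted p = 0.0274, edgeR), and Dcxr, a carbonyl reductase of xylulose metabolism, rose 2.03-fold (adjusted p = 0.0136, edgeR). Groups did not overlap for any of these 4 genes. Gdf15, a stress-induced secreted factor of the TGF-beta family, was at 19.0 and 28.4 CPM in IR+GFP glands, against 0.668 and 2.05 CPM in NT glands. Its 17.0-fold rise (log2 4.09 ± 0.59 SE) was close to the threshold (adjusted p = 0.0411, edgeR), and the NT samples differed by about 3 times. It missed the threshold without NT libraries 2 and 3, without IR+GFP libraries 1 and 2 and without IR+GFP library 3, with adjusted p from 0.109 to 0.169. Gadd45a and Rrm2b, which act in damage response and nucleotide supply, had log2 fold changes of 0.13 ± 0.25 and 0.14 ± 0.15 SE, and neither passed.

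Mdm2 and Ppm1d, list members that restrain p53 signalling, did not pass. Mdm2, the ubiquitin ligase that degrades p53, was at 50.3 and 52.0 CPM in IR+GFP glands, against 36.9 and 35.6 CPM in NT glands. The groups did not overlap, but the difference missed the threshold (log2 0.49 ± 0.10 SE, adjusted p = 0.0622, edgeR). Ppm1d, a phosphatase that switches the damage signal off, had log2 0.06 ± 0.17 SE and overlapped between the groups. Mdm4, a relative of Mdm2 that is not on the list and was picked after its values were seen, was at 24.5 and 20.1 CPM in IR+GFP glands, against 12.5 and 8.91 CPM in NT glands (2.08-fold, adjusted p = 0.0274, edgeR). Its pseudogene Mdm4-ps rose too, and reads of such close copies may be shared between them.

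**Figure D2:**
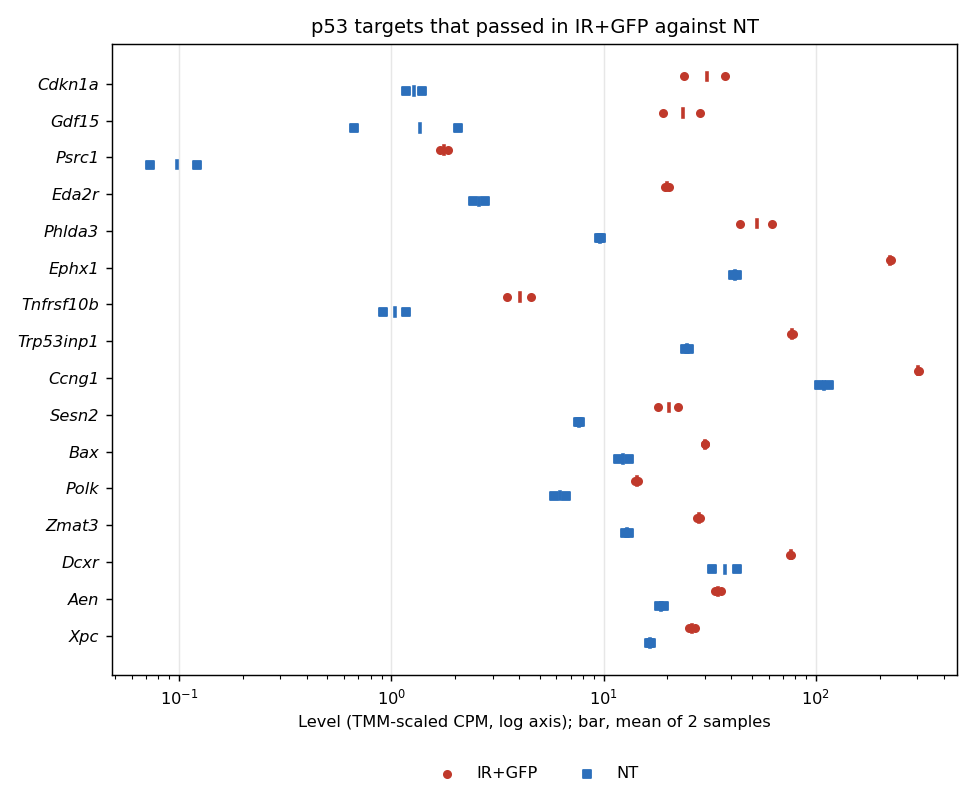
Levels in TMM-scaled CPM (log axis) of the 16 p53 targets that passed, 1 point per sample and a bar at the mean of 2 samples, with IR+GFP (red circles) above NT (blue squares) for each gene. No gene has overlapping groups, and the gap is widest for Cdkn1a, at 24.0 and 37.3 CPM in IR+GFP glands and 1.40 and 1.17 CPM in NT glands.

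p53 binds as a tetramer to paired half-sites, and the promoter stretches of list members that rose are shown because they carry letters of that motif close to the start site. Promoters, taken from RefSeq (GRCm38.p6), span 250 bases before to 50 bases after each start. In the sequences below, printed 5′ to 3′ on the gene's strand, capitals mark matches to the p53 half-site on either strand, with 25 flanking bases on each side where the window allows.
Cdkn1a, chr17:29090881-29090962, plus strand: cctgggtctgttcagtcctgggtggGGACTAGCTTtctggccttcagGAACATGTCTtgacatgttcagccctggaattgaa
Ccng1, chr11:40755437-40755496, minus strand: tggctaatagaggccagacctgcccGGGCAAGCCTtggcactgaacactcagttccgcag
Bax, chr7:45467065-45467124, minus strand: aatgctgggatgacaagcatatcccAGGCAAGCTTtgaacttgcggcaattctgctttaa
Polk, chr13:96519384-96519437, minus strand: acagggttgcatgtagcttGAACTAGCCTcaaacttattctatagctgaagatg
Aen, chr7:78895912-78895971, plus strand: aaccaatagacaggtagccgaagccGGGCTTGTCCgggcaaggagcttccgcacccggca

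The printed Cdkn1a promoter held 2 half-sites, starting 73 and 51 bases before its start and 12 bases apart. Another Cdkn1a promoter, chr17:29093519-29093818, held 0, as did another Polk promoter, chr13:96542530-96542829. A pair at most 13 bases apart was found for 20 of 27025 genes with a promoter (0.074%), and Cdkn1a was the only called gene among them. A single half-site was common, at 9.55% of all genes and 8.34% of the genes tested. It was found in 5 of the 12 risen p53 targets with a promoter in the table, in 7 of the 15 list members that did not pass, in 9 of all 70 risen genes and in none of the 13 that fell. A match describes the letters in this window and says nothing of binding.

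Among the other largest rises, Tmem44, which encodes a transmembrane protein, was at 17.8 and 20.3 CPM in IR+GFP glands, against 2.28 and 4.21 CPM in NT glands (5.81-fold, log2 2.54 ± 0.23 SE, adjusted p = 0.00222, edgeR). Ddias, an anti-apoptotic gene induced by DNA damage, was at 2.47 and 3.26 CPM in IR+GFP glands, against 0.182 and 0.330 CPM in NT glands (9.04-fold, log2 3.18 ± 0.42 SE, adjusted p = 0.0136, edgeR). Dyrk3, a kinase that dissolves stress granules, was at 8.31 and 9.91 CPM in IR+GFP glands, against 2.31 and 1.54 CPM in NT glands (4.56-fold, log2 2.19 ± 0.25 SE, adjusted p = 0.00787, edgeR). None of the 3 genes had overlapping groups.

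The rest of the largest rises were low or less even. Inka2, an inhibitor of the kinase Pak4, was at 3.58 and 4.56 CPM in IR+GFP glands, against 0.425 and 0.660 CPM in NT glands (log2 2.76 ± 0.35 SE, adjusted p = 0.0104, edgeR). Ddit4l, a stress-induced inhibitor of mTOR signalling, was at 2.68 and 5.48 CPM in IR+GFP glands, against 0.698 and 0.257 CPM in NT glands (log2 2.87 ± 0.45 SE, adjusted p = 0.0286, edgeR). Dnah10, an axonemal dynein heavy chain, was at 15.8 and 12.7 CPM in IR+GFP glands, against 3.31 and 1.80 CPM in NT glands (log2 2.44 ± 0.34 SE, adjusted p = 0.0224, edgeR). The samples of Ddit4l differed by over 2 times within each group, so its size is loosely set. Egr1, an immediate early transcription factor, was at 24.1 and 15.8 CPM in IR+GFP glands, against 2.31 and 2.38 CPM in NT glands (8.31-fold, log2 3.05 ± 0.43 SE, adjusted p = 0.0287, edgeR). Egr1 was the only one of 12 immediate early and heat shock genes tested to pass, against 0.622% of all genes that rose, and it missed the threshold when any of the 4 samples was left out, with adjusted p from 0.0694 to 0.188.

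The 17 genes that fell changed by less, and the number of falls varied with the fit. Limma-voom gave 6 lower and 40 higher, and the compared groups alone gave 0 lower and 13 higher. Cholesterol synthesis was the list with most members among the 17 genes. Of 19 cholesterol synthesis and uptake genes tested, 2 fell, against 0.119% of all genes, and none rose. All 19 had log2 fold changes below 0, with a median of -0.63, and the groups did not overlap for 16, as for 47.1% of all genes. Sqle, squalene epoxidase, was at 8.05 and 6.89 CPM in IR+GFP glands, against 16.5 and 23.8 CPM in NT glands, a 2.67-fold fall (log2 -1.41 ± 0.19 SE, adjusted p = 0.0156, edgeR). No member of the list passed without NT libraries 2 and 3, without IR+GFP libraries 1 and 2 or without IR+GFP library 3, and 5 passed without NT library 1.

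Genes of fatty acid handling were found on both sides. Acaca, acetyl-CoA carboxylase, the committed enzyme of fatty acid synthesis, was at 16.7 and 15.3 CPM in IR+GFP glands, against 27.5 and 26.4 CPM in NT glands (log2 -0.75 ± 0.11 SE, adjusted p = 0.0209, edgeR). Acsl4, an acyl-CoA synthetase with a preference for arachidonate, was at 25.6 and 23.9 CPM in IR+GFP glands, against 44.1 and 54.1 CPM in NT glands (log2 -0.99 ± 0.15 SE, adjusted p = 0.0268, edgeR). Cpt1a, which carries long-chain fatty acids into mitochondria and was picked after its values were seen, was at 128 and 142 CPM in IR+GFP glands, against 84.2 and 91.8 CPM in NT glands (1.54-fold, adjusted p = 0.0274, edgeR). Ces1d, a carboxylesterase that hydrolyses lipids, was at 103 and 120 CPM in IR+GFP glands, against 48.8 and 44.4 CPM in NT glands (2.39-fold, adjusted p = 0.0224, edgeR). Acaca and Acsl4 were thus lower and Cpt1a and Ces1d higher, each with groups that did not overlap; no list of fatty acid genes was tested.

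Of 26 endoplasmic reticulum folding and stress genes tested, Ostc alone passed and fell, against 0.119% of all genes. Ostc, a subunit of the oligosaccharyltransferase that glycosylates nascent proteins, was at 49.2 and 40.6 CPM in IR+GFP glands, against 75.8 and 84.9 CPM in NT glands, a 1.79-fold fall (log2 -0.84 ± 0.12 SE, adjusted p = 0.0196, edgeR). The list's median log2 fold change was -0.34, 20 members were below 0 and 21 had groups that did not overlap, as had 47.1% of all genes. Its summed level was 5599 and 5252 CPM in IR+GFP glands, against 8095 and 7167 CPM in NT glands. Pdia3, a disulfide isomerase of glycoprotein folding, was at 490 and 424 CPM in IR+GFP glands, against 795 and 751 CPM in NT glands, and missed the threshold (log2 -0.76 ± 0.14 SE, adjusted p = 0.0515, edgeR). The number of calls in this list was 0 to 16 across the alternative fits, and 0 when IR+GFP library 3, IR+GFP libraries 1 and 2 or NT libraries 2 and 3 were left out. Chac1 and Trib3, targets of the stress factor ATF4, had positive values with wide errors, at log2 2.53 ± 1.05 and 1.35 ± 0.59 SE, and did not pass.

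The other large falls came from varied functions. Olfml3, a secreted olfactomedin-like matrix protein, had the largest, at 5.67 and 4.99 CPM in IR+GFP glands, against 13.2 and 23.3 CPM in NT glands (3.37-fold lower, log2 -1.75 ± 0.29 SE, adjusted p = 0.0346, edgeR). Ppa1, an inorganic pyrophosphatase, was at 32.6 and 32.7 CPM in IR+GFP glands, against 59.0 and 79.6 CPM in NT glands (2.12-fold lower, log2 -1.08 ± 0.13 SE, adjusted p = 0.0104, edgeR). Gmds, which makes GDP-fucose for glycans, was at 27.5 and 30.5 CPM in IR+GFP glands, against 50.1 and 60.1 CPM in NT glands (log2 -0.92 ± 0.12 SE, adjusted p = 0.0136, edgeR). In each, the IR+GFP samples were close together and the NT samples spread more, with the combined NT sample higher. That sample also held the high level of sublingual gland genes, whose part in these falls was not tested. Across the alternative fits, which include a fit without that sample, the log2 fold change of Olfml3 ran from -2.11 to -1.295. That of Ppa1 ran from -1.28 to -0.8555 and that of Gmds from -1.05 to -0.79. Tubb5, a beta-tubulin, was at 42.2 and 45.7 CPM in IR+GFP glands, against 80.6 and 69.9 CPM in NT glands (log2 -0.78 ± 0.10 SE, adjusted p = 0.0136, edgeR). Bpgm, which makes 2,3-bisphosphoglycerate, a ligand of haemoglobin, was 1.72-fold lower (adjusted p = 0.0424, edgeR), and Ccser1, a coiled-coil protein gene, 1.90-fold lower (adjusted p = 0.0479, edgeR). Ormdl2, a regulator of sphingolipid synthesis, was 1.73-fold lower (adjusted p = 0.0252, edgeR), but 66.7% of its exonic bases are shared with Dnajc14 on the opposite strand, so its reads cannot be assigned with certainty.

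The circadian clock is a loop in which CLOCK and BMAL1, the product of Arntl, activate genes through E-boxes, among them the repressors of the Per and Cry families and the output factors Dbp, Tef and Hlf. Of 19 clock genes tested, 4 rose and 1 fell, against 0.622% and 0.119% of all genes. The list's median log2 fold change was 0.46, and the groups did not overlap for 16 members, as for 47.1% of all genes. The time of day at which glands were taken is not given in the sources used here, so its part in these values cannot be told apart from treatment. Bhlhe41, a repressor that binds E-boxes, was at 22.6 and 23.3 CPM in IR+GFP glands, against 11.3 and 12.2 CPM in NT glands (log2 0.96 ± 0.13 SE, adjusted p = 0.0133, edgeR). Cry2, a core repressor, was at 18.7 and 18.3 CPM in IR+GFP glands, against 10.8 and 12.3 CPM in NT glands (log2 0.68 ± 0.11 SE, adjusted p = 0.0274, edgeR). Tef was at 176 and 154 CPM in IR+GFP glands, against 97.2 and 84.6 CPM in NT glands (log2 0.86 ± 0.14 SE, adjusted p = 0.0327, edgeR). The rises of these 3 genes were 1.60-fold to 1.95-fold.

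Ciart, a repressor of CLOCK and BMAL1, was at 5.15 and 4.43 CPM in IR+GFP glands, against 1.24 and 0.843 CPM in NT glands (4.35-fold, log2 2.12 ± 0.36 SE, adjusted p = 0.0373, edgeR). Nfil3, a repressor that competes with Dbp and Tef for their sites, was the member that fell, at 6.30 and 4.80 CPM in IR+GFP glands, against 12.4 and 17.3 CPM in NT glands (2.63-fold lower, log2 -1.40 ± 0.22 SE, adjusted p = 0.0274, edgeR). The members with wide separation that did not pass included Dbp, at 46.7 and 47.8 CPM in IR+GFP glands, against 9.50 and 16.6 CPM in NT glands (log2 1.86 ± 0.34 SE, adjusted p = 0.0643, edgeR). Arntl was at 0.682 and 0.677 CPM in IR+GFP glands, against 2.76 and 2.90 CPM in NT glands (log2 -1.95 ± 0.46 SE, adjusted p = 0.104, edgeR). Per2 and Per3 had log2 fold changes of 1.50 ± 0.28 and 1.15 ± 0.21 SE (adjusted p = 0.0595 and 0.0533, edgeR). Of the clock genes, none passed without NT libraries 2 and 3 or without IR+GFP libraries 1 and 2, 1 passed without IR+GFP library 3 and 7 without NT library 1.

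The promoters of the clock genes that rose are shown because 3 of these 4 genes held the E-box CACGTG, which reads the same on both strands, in their RefSeq promoters (GRCm38.p6). Capitals mark the E-box in the sequences below, printed 5′ to 3′ on the gene's strand with 25 flanking bases on each side. Tef has an E-box at each of 2 start sites.
Bhlhe41, chr6:145865543-145865598, minus strand: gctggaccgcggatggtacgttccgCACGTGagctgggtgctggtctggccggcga
Ciart, chr3:95882242-95882369, minus strand: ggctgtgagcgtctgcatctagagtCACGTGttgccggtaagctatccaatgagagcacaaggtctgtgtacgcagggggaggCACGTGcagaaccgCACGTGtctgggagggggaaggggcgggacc
Tef, first start, chr15:81802521-81802576, plus strand: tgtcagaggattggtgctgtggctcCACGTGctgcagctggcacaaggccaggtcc
Tef, second start, chr15:81811251-81811306, plus strand: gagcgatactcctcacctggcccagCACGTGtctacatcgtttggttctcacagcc
The E-box was found in 5 of the 16 clock genes with a promoter in the table, in 14 of the 70 risen genes and in 8.09% of all 27025 genes (11.4% of the genes tested).

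**Figure D3:**
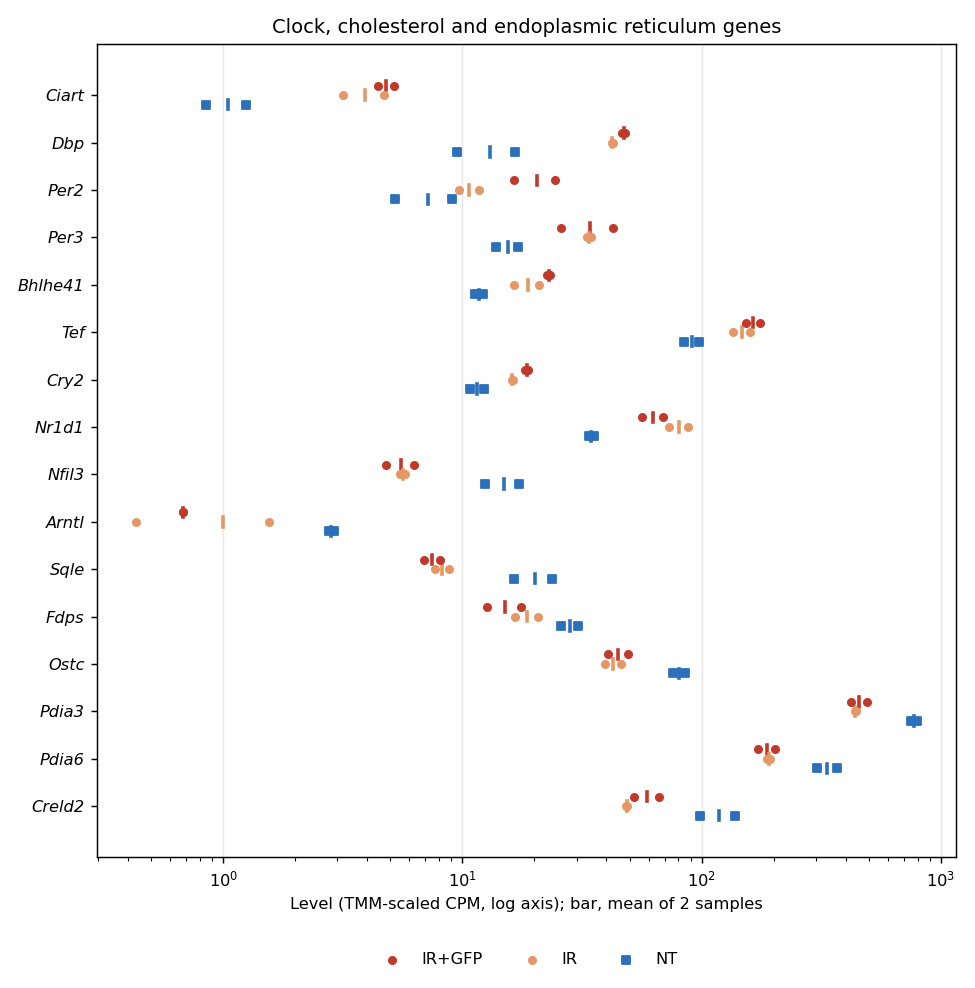
Levels in TMM-scaled CPM (log axis) of clock, cholesterol and endoplasmic reticulum genes, 1 point per sample and a bar at the mean of 2 samples, with IR+GFP (red) above IR (orange) and NT (blue squares). Every IR+GFP point of the first 8 genes lies above every NT point, as for Dbp at 46.7 and 47.8 CPM in IR+GFP glands and 9.50 and 16.6 CPM in NT glands, and from Nfil3 down every IR+GFP point lies below; Dbp, Per2, Per3, Nr1d1, Arntl, Fdps, Pdia3, Pdia6 and Creld2 did not pass in IR+GFP against NT.

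Of the DNA repair and cell cycle lists, 1 gene passed. Of 32 DNA repair genes on the list, Mgmt alone rose, against 0.622% of all genes. Polk and Xpc, counted among the p53 targets, and Rnf169, on no list, also rose. Mgmt, which removes alkyl groups from guanine, was at 5.32 and 6.83 CPM in IR+GFP glands, against 0.972 and 2.20 CPM in NT glands (3.74-fold, log2 1.90 ± 0.33 SE, adjusted p = 0.0411, edgeR), and the list's median was -0.06. Mgmt missed the threshold without IR+GFP libraries 1 and 2 and without IR+GFP library 3 (adjusted p = 0.114 and 0.195, edgeR). Of 30 cell cycle genes tested none passed. Their median log2 fold change was -0.59, 27 were below 0, and the groups did not overlap for 20, against 47.1% of all genes. Top2a, which untangles DNA in dividing cells, was at 0.639 and 0.739 CPM in IR+GFP glands, against 2.46 and 2.60 CPM in NT glands (log2 -1.78 ± 0.36 SE, adjusted p = 0.0643, edgeR). Ccnb2, a mitotic cyclin, was at 0.213 and 0.185 CPM in IR+GFP glands, against 0.759 and 0.623 CPM in NT glands (log2 -1.49 ± 0.36 SE, adjusted p = 0.104, edgeR). Both were low in every sample, below 3 CPM. Cdc25a, a phosphatase that drives the entry to S phase and was picked from outside the list after its values were seen, fell, at 13.6 and 14.5 CPM in IR+GFP glands, against 22.0 and 22.4 CPM in NT glands (log2 -0.66 ± 0.12 SE, adjusted p = 0.0476, edgeR). None of 13 senescence and secretory phenotype genes passed, although Cdkn1a, counted among the p53 targets, is also a common senescence marker.

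The labelled gland was checked against markers of its ducts and acini, and these were read in every sample. Egf, a growth factor gene of the male granular ducts, was at 54141 and 50310 CPM in IR+GFP glands, against 61528 and 58958 CPM in NT glands. Aqp5, the acinar water channel, was at 227 and 230 CPM in IR+GFP glands, against 202 and 380 CPM in NT glands. Neither gene passed.

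None of 19 granular convoluted tubule genes passed, yet all 19 were below 0, with a median log2 fold change of -0.39 and groups that did not overlap for 16, as for 47.1% of all genes. Their summed level was 269620 and 243050 CPM in IR+GFP glands, against 310860 and 351730 CPM in NT glands. Crisp1, a cysteine-rich secretory protein, was at 628 and 671 CPM in IR+GFP glands, against 1134 and 1663 CPM in NT glands (log2 -1.11 ± 0.40 SE, adjusted p = 0.232, edgeR). Klk1b1 had log2 -0.77 ± 0.35 SE, and it and the other kallikreins of this list are close copies whose reads may be shared. Of 18 acinar secretion genes none passed, with a median of 0.06. Kcnn4, a potassium channel that supports fluid secretion, was at 189 and 212 CPM in IR+GFP glands, against 129 and 147 CPM in NT glands (log2 0.54 ± 0.12 SE, adjusted p = 0.0870, edgeR). Slc12a2, the cotransporter that loads acinar cells with chloride, was at 1051 and 990 CPM in IR+GFP glands, against 624 and 581 CPM in NT glands (log2 0.76 ± 0.18 SE, adjusted p = 0.104, edgeR). For both genes each IR+GFP sample lay above each NT sample, without passing the test.

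Of 16 duct and ionocyte genes, Ascl3 alone rose, against 0.622% of all genes. Ascl3, a transcription factor of duct progenitors and ionocytes, was at 35.4 and 36.3 CPM in IR+GFP glands, against 21.1 and 17.6 CPM in NT glands (1.84-fold, log2 0.88 ± 0.14 SE, adjusted p = 0.0267, edgeR), and the list's median was 0.25. Ascl3 missed the threshold without NT libraries 2 and 3, without IR+GFP libraries 1 and 2 and without IR+GFP library 3, with adjusted p from 0.118 to 0.150. None of 3 secretoglobins, 10 basal and myoepithelial genes or 9 neurotrophic genes passed, with medians of 0.22, 0.17 and 0.27. Krt14 and Acta2, markers of basal and myoepithelial cells, had log2 fold changes of 0.31 ± 0.12 and 0.42 ± 0.17 SE. Of 12 Hedgehog genes none passed. Gli2, a transcription factor of that pathway, was at 1.15 and 1.23 CPM in IR+GFP glands, against 0.364 and 0.257 CPM in NT glands (log2 1.71 ± 0.37 SE, adjusted p = 0.0845, edgeR), and the pathway target Ptch1 had -0.01 ± 0.20 SE.

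**Figure D4:**
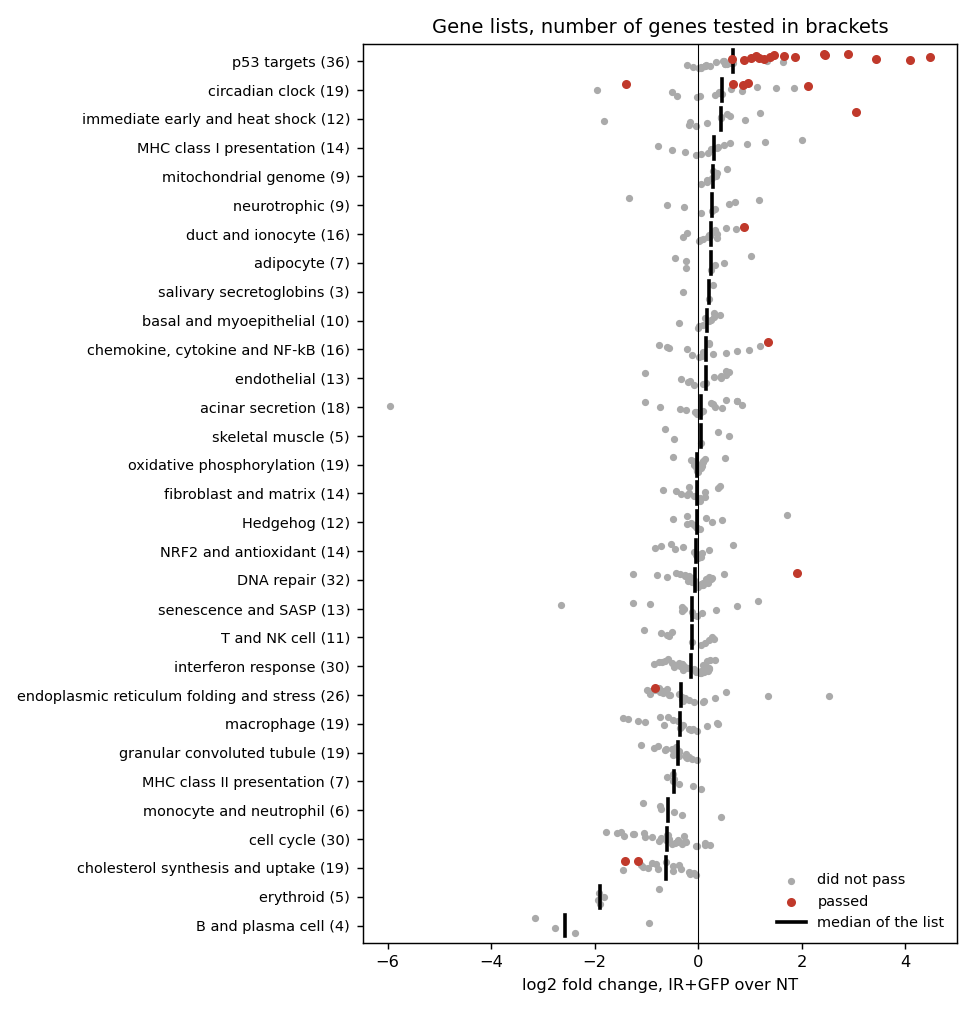
Log2 fold change of IR+GFP over NT for each gene tested of 31 gene lists (grey, did not pass; red, passed), with the list's median as a black bar and the number of genes tested in brackets. The p53 targets have the highest median, 0.67; the sublingual gland list, with a median of -7.63 and NT libraries 2 and 3 far apart from the rest, is not drawn.

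The immune and inflammatory lists held 1 gene that passed. Relb, a subunit of NF-kB, was at 6.26 and 8.43 CPM in IR+GFP glands, against 2.70 and 2.97 CPM in NT glands (2.54-fold, log2 1.35 ± 0.24 SE, adjusted p = 0.0411, edgeR), and was the one of 16 chemokine, cytokine and NF-kB genes to pass, against 0.622% of all genes that rose. It missed the threshold when any of the 4 samples was left out, with adjusted p from 0.0694 to 0.219. Lif, a cytokine of the interleukin 6 family that is on no list and was picked after its values were seen, also rose, at 1.06 and 1.60 CPM in IR+GFP glands, against 0.0304 and 0.147 CPM in NT glands (adjusted p = 0.0441, edgeR). Its NT levels rest on 1 and 4 reads. None of 30 interferon response genes passed, and their median was -0.13. None of 14 MHC class I genes passed. H2-Q6, a non-classical class I gene with close copies, had 21.3 CPM in IR+GFP library 3 and 3.53 CPM in the other IR+GFP sample, against about 3 CPM in both NT samples, so its high value came from a single library. None of 7 MHC class II genes, 6 monocyte and neutrophil genes or 11 T and NK cell genes passed.

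Of 19 macrophage genes none passed, 16 were below 0 and the median was -0.35. The summed level covered all 20 genes of the list, tested or not. It was 173 and 248 CPM in IR+GFP glands, against 310 and 280 CPM in NT glands. C1qb, a complement subunit made by tissue macrophages, was at 14.6 and 21.4 CPM in IR+GFP glands, against 32.0 and 27.9 CPM in NT glands (log2 -0.74 ± 0.16 SE, adjusted p = 0.0870, edgeR). The 4 B and plasma cell genes tested had a median of -2.58. All 12 genes of that list, tested or not, summed to 5.07 and 8.86 CPM in IR+GFP glands, against 29.0 and 14.2 CPM in NT glands. Jchain, which joins secreted antibody, was at 0.128 and 0.185 CPM in IR+GFP glands, against 2.73 and 1.10 CPM in NT glands (log2 -3.15 ± 0.74 SE, adjusted p = 0.104, edgeR). Erythroid genes, those of red blood cells, summed to 40.5 and 25.2 CPM in IR+GFP glands, against 103 and 137 CPM in NT glands. All 5 of them were below 0 and none passed, with Hba-a1, an alpha-globin, at log2 -1.92 ± 0.82 SE. The part of the blood and immune markers in the other differences was not tested.

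**Figure D5:**
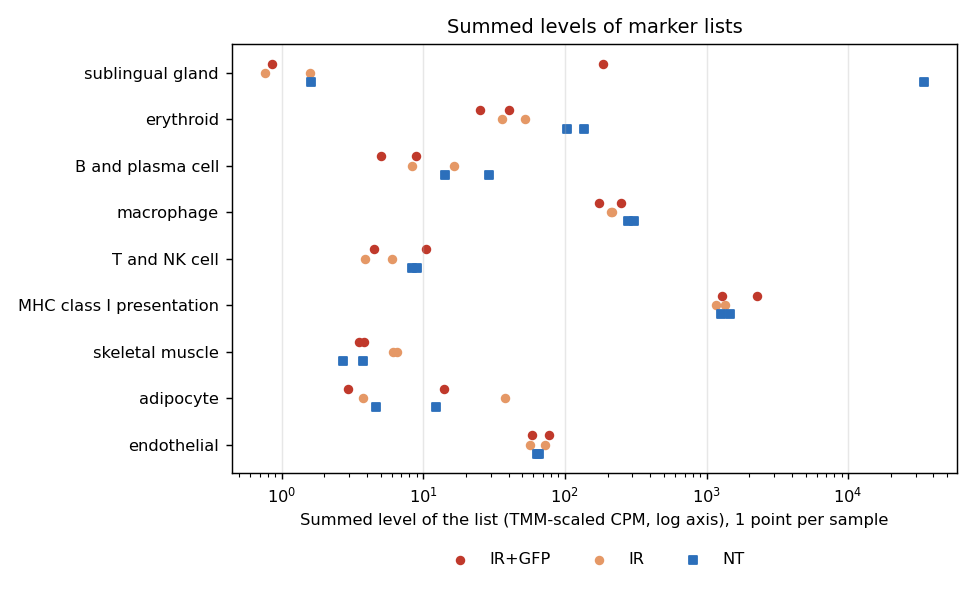
Summed TMM-scaled CPM (log axis) of marker lists of other tissues and cell types, 1 point per sample, with IR+GFP (red) above IR (orange) and NT (blue squares). Sublingual gland genes reach 34557 CPM in a single NT sample, and erythroid genes are at 40.5 and 25.2 CPM in IR+GFP glands and 103 and 137 CPM in NT glands.

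The other lists had no member that passed. Their median log2 fold changes were -0.03 for 14 antioxidant genes of the NRF2 programme, 0.15 for 13 endothelial genes, -0.03 for 14 fibroblast and matrix genes, -0.01 for 19 oxidative phosphorylation genes, 0.05 for 5 skeletal muscle genes and 0.24 for 7 adipocyte genes. The 9 genes of the mitochondrial genome had a median of 0.30, and all 9 were above 0. Gclc, which starts glutathione synthesis, had log2 0.67 ± 0.16 SE and Prdx1, a peroxidase, -0.53 ± 0.12 SE (adjusted p = 0.104 for each, edgeR).

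The IR group lacks gene transfer and shares the NT samples, so its values are given side by side and not as independent evidence. In IR glands, 98 genes passed against NT glands (0.685% of those tested), 74 higher (0.517%) and 24 lower (0.168%). Cdkn1a was at 24.0 and 37.3 CPM in IR+GFP glands, 22.3 and 24.0 CPM in IR glands and 1.40 and 1.17 CPM in NT glands. Ephx1 was at 225 and 223 CPM in IR+GFP glands, 211 and 232 CPM in IR glands and 40.7 and 42.6 CPM in NT glands. Ccng1 was at 302 and 306 CPM in IR+GFP glands, 274 and 300 CPM in IR glands and 115 and 104 CPM in NT glands. The levels of the 3 markers in both irradiated groups lay far above those of NT glands. Of the p53 targets, 16 passed in IR+GFP glands and 15 in IR glands, with medians of 0.67 and 0.70, and of the clock genes 5 and 1 passed, with medians of 0.46 and 0.47. Cholesterol genes gave 2 calls in IR+GFP glands and 1 in IR glands, with medians of -0.63 and -0.59. Medians of some other lists were further apart. In IR+GFP and IR glands they were -0.59 and -0.15 for cell cycle genes and -0.39 and -0.19 for granular convoluted tubule genes. They were 0.31 and -0.10 for MHC class I genes and -2.58 and -0.84 for B and plasma cell genes. No gene of these further lists passed in either comparison or in the direct test below.

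When IR+GFP glands were tested directly against IR glands, none of the 14304 genes passed by edgeR's quasi-likelihood test (0%), 298 had an unadjusted p below 0.05 (2.08%), limma-voom gave 0 calls and DESeq2 7. An absence of calls with 2 samples in each group does not show that the groups are alike. The interval is narrow for some genes and wide for others, as the errors of the difference show. It was 0.02 ± 0.12 SE on the log2 scale for Ephx1, 0.08 ± 0.12 for Ccng1 and 0.40 ± 0.30 for Cdkn1a.

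The 6 genes called against NT with the smallest p in the direct test had an adjusted p of 1 there. Egr1 was at 24.1 and 15.8 CPM in IR+GFP glands and 5.60 and 12.8 CPM in IR glands (log2 1.14 ± 0.39 SE, unadjusted p = 0.0206, edgeR's quasi-likelihood test). Ces1d was at 103 and 120 CPM in IR+GFP glands and 72.7 and 87.8 CPM in IR glands (log2 0.47 ± 0.18 SE, unadjusted p = 0.0288, edgeR's quasi-likelihood test). Pik3ip1, an inhibitor of PI3 kinase, was at 14.4 and 16.6 CPM in IR+GFP glands, 20.4 and 22.5 CPM in IR glands and 5.80 and 6.45 CPM in NT glands (log2 -0.46 ± 0.15 SE for IR+GFP over IR, unadjusted p = 0.0127, edgeR's quasi-likelihood test). For each of these 3 genes the samples of the irradiated groups did not overlap, which was the case for 32.8% of all genes tested. Ccser1, Acaca and Tmem164, a transmembrane protein gene, had log2 differences of -0.49 ± 0.17, -0.32 ± 0.11 and -0.26 ± 0.09 SE.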

How the data were processed

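Messenger RNA of whole glands was sequenced with a TruSeq kit, per the labels' protocols. The authors deposited whole-number read counts per gene for each library; the tools HTSeq 0.10.0, TopHat2 2.0.13, Bowtie 0.12.2 and DESeq2 and the build mm10 (GRCm38) are named, without their settings, per the submitters' processing notes. The annotation release and the strand setting are not given in the sources used here. Reads with several alignments were not in the gene counts, so close copies are undercounted; rows that name no gene held 7.04% to 13.1% of reads and were left out. Symbols from GENCODE M21 matched 37607 of 39179 gene IDs (96.0%).

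Near-identical libraries of a group were combined by the rounded mean of their counts. The resulting 10 samples of all 5 groups were fitted together in R 4.3.3 with edgeR 4.0.16 (filterByExpr, TMM, robust quasi-likelihood, 5 residual degrees of freedom, common biological coefficient of variation 0.190), with Benjamini-Hochberg adjustment and a threshold of 0.05. The script was tested on simulated data. Standard errors are the log2 fold change over the root of the F statistic. The genes, 32 gene lists and tests were chosen with earlier results of these data known. Named genes were Cdkn1a, Ephx1 and Ccng1, the 12 largest rises and 12 largest falls that passed with at least 2 CPM, up to 8 passing members of each list or, where none passed, the 2 of smallest p, and the 6 called genes of smallest p against IR; further list members are given as values. Sequences are from RefSeq GRCm38.p6. Intervals cover the spread between samples only. Some members of these lists are not reported here.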

Additional observations from a re-analysis of the deposited data

Results flagged for a closer look

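Some reads that were not assigned to genes made up a larger share in IR+GFP libraries than in any NT library. For reads with several alignments this held for library 3 alone. Reads with several alignments made up 8.22% of all reads in IR+GFP library 3, above the highest NT library at 4.61%, while IR+GFP libraries 1 and 2 were at 3.04% and 2.98%. Reads outside annotated genes made up 2.60%, 2.60% and 3.02% of all reads in IR+GFP libraries 1, 2 and 3, above the highest NT library at 1.58%. Libraries 1 and 2 were near-identical and count as 1 sample. The part of these reads in the gene results was not tested. Without IR+GFP library 3, Ephx1, Ccng1, Eda2r, Phlda3, Trp53inp1 and Zmat3 still passed by edgeR.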

How the results depend on the processing

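With 2 samples a group, the number of calls varied widely between alternatives. None of the 39 named genes that passed changed direction in any of the 18 alternatives, but 169 of their 702 values no longer passed. Ephx1, Ccng1, Eda2r, Phlda3, Trp53inp1 and Zmat3 passed in every alternative, and Tmem44, Dyrk3 and Sesn2 also passed without each sample of the compared groups in turn. For IR+GFP against NT the count of 106 became 1471 (685 higher, 786 lower) with no filter on low counts, 429 (251 higher, 178 lower) with DESeq2, 46 with limma-voom, 13 with the compared groups alone and 3680 with all 15 libraries as separate samples, which counts near-identical libraries as replicates. Leaving out 1 sample gave 23, 23, 25 and 560, the last without NT library 1 with 160 higher and 400 lower. Total-count scaling gave 97, of which 63 were among the 106. For IR against NT the count of 98 became 1235 with no filter, 472 with DESeq2, 57 with limma-voom, 4154 with separate libraries, 317 without IR+GFP library 3 and IR+Gli1 library 3, and 9, 16, 21 and 548 when 1 sample was left out. For IR+GFP against IR the count of 0 became 214 with no filter, 7 with DESeq2, 5 with separate libraries and 0 to 1 when 1 sample was left out. A fit with the replicate number as a block gave 3578 calls for IR+GFP against NT and 4048 for IR against NT. It gave 0 for IR+GFP against IR. Same-numbered libraries of IR+GFP and NT correlated at -0.068, 0.048 and -0.06 in their deviations from the group mean. Because each group held near-identical libraries, the layout of those pairs kept these values from sharing a sign. They cannot show whether the numbers pair samples, and no pairing was used in the main fit. The causes of the changes in the number of calls were not tested.

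Of genes that did not pass, the log2 fold change reversed for Scgb2b26 to 0.088 without NT library 1, 0.0389 without IR+GFP library 3 and 0.0392 without that and IR+Gli1 library 3, for Ntrk2 to 0.14, Dcpp1 to 4.41, Smgc to 1.61 and Lep to 0.88 without NT libraries 2 and 3, for Lep to 0.087 with limma-voom, and for Retn, at 0.3465 to 2.18 without 1 of the other samples, to -1.18 without IR+GFP library 3 and -1.19 without that and IR+Gli1 library 3. Depth of 18366306 reads or more left genes under about 1 CPM, such as Psrc1 or Ccnb2, with few reads.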

Other observations

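Among the 106 called genes, several outside the lists are described here, picked after their values were seen. Bcl2l11, which encodes the BH3-only death protein BIM, was at 16.1 and 16.8 CPM in IR+GFP glands, against 10.5 and 9.75 CPM in NT glands (1.62-fold, adjusted p = 0.0324, edgeR). Map3k20, the stress-activated kinase ZAK, was at 18.4 and 16.9 CPM in IR+GFP glands, against 5.71 and 7.95 CPM in NT glands (2.58-fold, adjusted p = 0.00853, edgeR). Rnf169, a protein recruited to DNA double-strand breaks, was at 21.9 and 20.1 CPM in IR+GFP glands, against 10.9 and 9.42 CPM in NT glands (2.06-fold, adjusted p = 0.0126, edgeR). All 3 had groups that did not overlap.

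Secreted and matrix factors, a receptor adaptor and an exocyst subunit were also among the genes that rose. Gas6, the ligand of TAM receptors, was at 233 and 259 CPM in IR+GFP glands, against 136 and 153 CPM in NT glands (1.70-fold, adjusted p = 0.0252, edgeR). Wnt4, a Wnt ligand, was at 164 and 165 CPM in IR+GFP glands, against 112 and 99.4 CPM in NT glands (1.56-fold, adjusted p = 0.0411, edgeR). Lama5, a laminin chain of the epithelial basement membrane, was at 138 and 105 CPM in IR+GFP glands, against 70.0 and 66.8 CPM in NT glands (1.78-fold, adjusted p = 0.0276, edgeR). Edaradd, the adaptor of the ectodysplasin A1 receptor, was at 30.9 and 37.9 CPM in IR+GFP glands, against 15.8 and 11.7 CPM in NT glands (2.49-fold, adjusted p = 0.0305, edgeR), beside Eda2r, the receptor of the other ectodysplasin form. Exoc4, a subunit of the exocyst that tethers secretory vesicles, was at 80.8 and 89.5 CPM in IR+GFP glands, against 30.1 and 25.9 CPM in NT glands (3.04-fold, adjusted p = 0.00172, edgeR). In all 5 genes both IR+GFP samples exceeded both NT samples.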
